A study of Mus musculus with 16 samples.

Results

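The 39 genes described here encode the machinery by which a newly made protein enters the endoplasmic reticulum (ER), is modified there and leaves for the Golgi. They were picked by name from the 29806 gene rows of the deposited tables, and all 39 had a row. They comprise 6 genes of the signal recognition particle and its receptor, 6 of the translocation channel, 4 of the translocon-associated TRAP complex, 5 of signal peptidase, 8 of the oligosaccharyltransferase and 10 of the COPII coat. RNA was sequenced from haematopoietic stem cells (HSC) and from MPP3, a myeloid-biased multipotent progenitor, here the fraction labelled Fcgr(-), which were taken from the bone marrow of wild-type and Jak2V617F mice. Jak2V617F is a constitutively active form of the kinase JAK2. The 4 groups were control (WT) HSC, Jak2V617F HSC, control (WT) MPP3 and Jak2V617F MPP3, with 4 libraries each, and a replicate number was also the batch number in the labels. The age of the mice, their treatment if any, the promoter or Cre behind the mutant allele, and whether replicates were separate animals are not stated in the labels. A p-value therefore covers the spread among these libraries, which may be technical.

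Secretory and membrane proteins carry a signal sequence that the signal recognition particle reads as it leaves the ribosome. The particle docks at its receptor on the ER, the chain passes through the Sec61 channel with help from TRAP, signal peptidase removes the signal sequence, and the oligosaccharyltransferase attaches a preassembled glycan to asparagine. COPII then buds vesicles from the ER: the GTPase Sar1 recruits the inner Sec23 and Sec24 proteins, of which Sec24 binds cargo, and the outer Sec13 and Sec31 proteins complete the coat. Many of these genes are known targets of the unfolded protein response, in particular of the transcription factor XBP1 in plasma cells, and myeloid progenitors use the same route to make granule proteins.

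Per library, the sum of estimated counts was 33.11 to 41.23 (in units of 1000000), with 14439 to 16522 genes detected. Levels within a gene are CPM, counts per 1000000 with TMM-scaled library sizes, and levels between genes are TPM, which are per length. A change was called at an adjusted p under 0.05 by the quasi-likelihood test of edgeR, adjusted by Benjamini and Hochberg's method across the 14179 genes tested, and fold changes are log2 ± SE. Of the 39 genes, 38 passed the filter on low counts. Spcs1, a signal peptidase subunit, was listed at 0 in all 16 libraries, and no level is drawn from that listing. The labelled cell types were checked against markers: the sum of Mpo, Elane, Prtn3, Ctsg and Cd48 lay between 2529 and 5591 CPM in MPP3 libraries and between 176 and 411 CPM in HSC libraries, while that of Slamf1, Procr, Hlf, Mecom and Fgd5 lay between 490 and 607 CPM in control HSC and between 192 and 312 CPM in MPP3. Jak2V617F HSC lay between 314 and 354 CPM for the HSC markers. In libraries from a pool of cells, fewer cells of a type and less RNA per cell cannot be told apart.

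The promoters of 4 of these genes are shown first. Sec24d, Rpn1 and Sec13 rose in Jak2V617F HSC with no overlap between the groups, 3 of 38 members, a share close to the 7.26% of all genes. Spcs3, which was also called higher in these cells, had no window. Krtcap2, which was called in no comparison, holds the ER stress motif ERSE-II in the second of its windows. The promoters shown are 300-base RefSeq windows of the build GRCm38.p6, from 250 bases before to 50 after the start. They are read 5′ to 3′ on the gene's strand, and capitals mark a match to a motif named after the sequences.

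Sec24d (chr3:123267246-123267545, plus strand): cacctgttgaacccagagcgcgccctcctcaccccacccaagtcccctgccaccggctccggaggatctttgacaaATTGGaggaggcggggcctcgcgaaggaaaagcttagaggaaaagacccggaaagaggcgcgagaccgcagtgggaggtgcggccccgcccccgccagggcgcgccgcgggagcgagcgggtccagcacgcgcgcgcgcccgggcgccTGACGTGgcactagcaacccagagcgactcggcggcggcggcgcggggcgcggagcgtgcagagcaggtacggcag

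Rpn1 (chr6:88084223-88084522, plus strand): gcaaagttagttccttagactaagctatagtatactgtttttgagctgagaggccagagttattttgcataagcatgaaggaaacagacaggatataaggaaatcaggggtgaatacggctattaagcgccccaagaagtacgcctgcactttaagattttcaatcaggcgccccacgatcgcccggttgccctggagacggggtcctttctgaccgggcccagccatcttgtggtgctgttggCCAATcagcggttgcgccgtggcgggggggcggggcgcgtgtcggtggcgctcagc

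Sec13 (chr6:113740632-113740931, minus strand, with no match): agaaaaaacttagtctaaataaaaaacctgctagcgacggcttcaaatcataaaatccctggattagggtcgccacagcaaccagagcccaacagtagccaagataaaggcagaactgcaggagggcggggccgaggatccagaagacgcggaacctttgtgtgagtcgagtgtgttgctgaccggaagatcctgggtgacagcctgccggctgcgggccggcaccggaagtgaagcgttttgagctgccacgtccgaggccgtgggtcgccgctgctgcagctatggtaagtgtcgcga

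Krtcap2 (chr3:89246223-89246522, plus strand, the second of its windows): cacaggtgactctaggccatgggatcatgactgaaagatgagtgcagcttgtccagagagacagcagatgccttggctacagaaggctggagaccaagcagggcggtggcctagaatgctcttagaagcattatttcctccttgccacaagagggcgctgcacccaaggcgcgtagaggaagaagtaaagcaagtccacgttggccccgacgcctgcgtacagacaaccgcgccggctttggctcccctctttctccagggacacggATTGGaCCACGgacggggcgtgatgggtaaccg

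Windows were given for 32 members, 36 windows in all, and both strands were searched. The core TGACGTG of the UPRE, an element bound by XBP1 and ATF6, was in the windows of Sec24d and Sec23a. These are 2 of the 36 member windows, beside 2.01% of all 32851 windows. ERSE-II (ATTGG, 1 base, CCACG) was in a window of Krtcap2 alone among the members and in 0.04% of all windows. It lies there within the 50 bases after the start. This Krtcap2 match overlaps a CCAAT box, which reads ATTGG on the opposite strand, as it does in Sec24d. The full ERSE (CCAAT, a gap of 9 bases, CCACG) was in no member window and in 0.12% of all windows, and the cAMP response element TGACGTCA was in none and in 1.79%. A CCAAT box was in 16 of the 36 member windows, beside 37.41% of all windows. These belong to 15 members, Rpn1 and Sec24d among them. A match describes the letters of the window and no more.

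By TPM averaged over 16 libraries, 37 of the 38 genes stood above the median of all genes tested, 10.2 TPM, and Sec24a stood below it. In the channel, Sec61b, the small tail-anchored subunit, was highest at 499 TPM, ahead of the pore-forming Sec61a1 at 169 TPM and the membrane protein Tram1 at 96.6 TPM. The accessory subunits Sec62 and Sec63, which serve in post-translational entry, were at 58.4 and 11.2 TPM. In the oligosaccharyltransferase, Krtcap2 and Rpn2 led at 365 and 348 TPM, followed by Dad1 at 317 and Ost4 at 263 TPM. Of the catalytic subunits, the co-translational Stt3a was at 123 TPM and the post-translational Stt3b at 18.7 TPM. The COPII coat was led by Sec13 at 128 TPM and the GTPase Sar1b at 99.3 TPM, and the lowest of the 38 was the cargo-binding Sec24a at 3.66 TPM. The coefficient of variation of TPM over the 16 libraries had a median of 14.1% for the members, from 6.61% for Dad1 to 30.3% for Sec63, compared with 21.3% for tested genes averaging at least 10 CPM and 28.7% for all genes tested. Sec63 exceeded both of these medians, and Sec24d, Sec24b, Spcs3, Sec24a, Sec23a, Ssr3 and Sec61g exceeded the lower one.

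**Figure D1:**
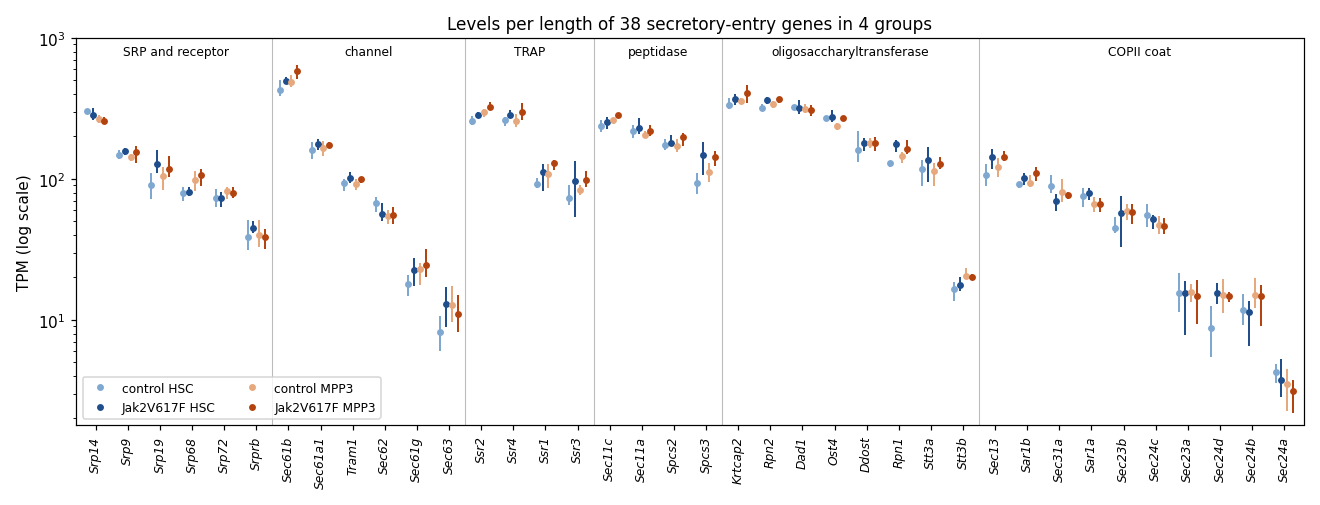
TPM on a log axis of the 38 secretory-entry genes, by role, in control and Jak2V617F HSC and MPP3 (points are means of 4 libraries, bars the range). Sec61b at 499 TPM and Sec24a at 3.66 TPM, as means over 16 libraries, mark the top and the bottom.

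Some rows share sequence with other genes, so their level is uncertain. Sec61g, the smallest channel subunit, stood at a mean of 7.02 CPM in control HSC and 9.58 CPM in Jak2V617F MPP3, while Gm10177, a transcribed processed pseudogene that shares 390 of the 2490 31-base words of Sec61g, stood at 70.4 and 82.0 CPM in the same groups. The sum of both rows was 77.4 ± 11.4 CPM in control HSC, 81.9 ± 4.13 in Jak2V617F HSC, 79.0 ± 8.99 in control MPP3 and 91.6 ± 15.1 in Jak2V617F MPP3 (SD, n = 4). On the opposite strand, Ost4 shares 49.2% of its 31-base words with Agbl5, Krtcap2 shares 13.7% with Trim46, Ssr2 shares 13.7% with Rtraf and Srp9 shares 13.6% with Gm17968. No source used here says whether the counting used strand, so reads of these pairs may not have been told apart. For the 6 members called below, the most that any single gene shared was 3.07% of the words of Sec13 and 2.23% of those of Rpn1, and no 31-base word of Stt3b was found in another gene.

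In Jak2V617F HSC, 4 of the 38 genes rose against control HSC and none fell by the edgeR test. They were Sec24d, a cargo-binding Sec24 protein of the COPII coat, Spcs3, a signal peptidase subunit, Rpn1, a ribophorin subunit of the oligosaccharyltransferase, and Sec13, of the outer COPII coat. The count is 10.5% of the members, beside 7.3% of all genes called in either direction, 4.56% called higher and 2.74% lower, and beside 10.9% called in either direction among genes averaging at least 10 CPM, which is nearer to the level of the members. At an unadjusted p under 0.05 there were 9 members, 2 of them lower (Sec62 and Sec31a), beside 21.7% of all genes, and DESeq2 and limma-voom called no member lower. edgeR called Sec62 lower with the batch as a block and Sec31a lower without control HSC 2. No gene of the signal recognition particle, the channel or TRAP passed the test, and 1 of 4 tested in signal peptidase, 1 of 8 in the oligosaccharyltransferase and 2 of 10 in the COPII coat did.

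Sec24d (chr3:123267455-123365641) was at 23.8, 16.7, 28.4 and 35.7 CPM in control HSC and 36.8, 54.8, 48.7 and 47.6 CPM in Jak2V617F HSC, replicates 1 to 4. All 4 mutant libraries lay above the control libraries, control 4 being the nearest. The fold change was 0.84 ± 0.20 (edgeR adjusted p = 0.0159), and within the batches it ran from 0.41 to 1.71. Spcs3 (chr8:54520433-54529998) was at 221, 155, 162 and 186 CPM in control HSC and 314, 279, 214 and 324 CPM in Jak2V617F HSC. The ranges overlap, because mutant 3 stood below control 1, although each batch was higher in the mutant. The fold change was 0.64 ± 0.14 (edgeR adjusted p = 0.0103).

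Rpn1 (chr6:88084482-88105304) was at 402, 362, 384 and 367 CPM in control HSC and 503, 524, 499 and 535 CPM in Jak2V617F HSC. The groups were apart by a wide gap and each was tight. Its fold change was 0.45 ± 0.09 (edgeR adjusted p = 0.00496), the smallest p of the members, and within the batches it ran from 0.33 to 0.54. Sec13 (chr6:113728062-113740743) was at 106, 93.4, 119 and 122 CPM in control HSC and 156, 136, 139 and 169 CPM in Jak2V617F HSC. The lowest mutant library, replicate 2, stood above the highest control, replicate 4. The fold change was 0.44 ± 0.11 (edgeR adjusted p = 0.0203), and the call was lost without control HSC 2 (0.0632), Jak2V617F HSC 1 (0.0604) or Jak2V617F HSC 4 (0.0566). Jak2V617F HSC 1 and 4 correlated more closely (r = 0.971 over genes) than any other replicates of 1 group, and without both only Sec24d kept its call. The fold change was then 0.43 for Rpn1 (adjusted p = 0.0527), 0.44 for Spcs3 (0.197) and 0.32 for Sec13 (0.263), so that Rpn1 stayed near its value over all libraries while Spcs3 and Sec13 were lower. Without Jak2V617F HSC 3 the count was 7, with Ssr1 (0.0202), Ssr3 (0.0215) and Sec23b (0.0308) added. The share of all genes called in that fit is not given here.

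**Figure D2:**
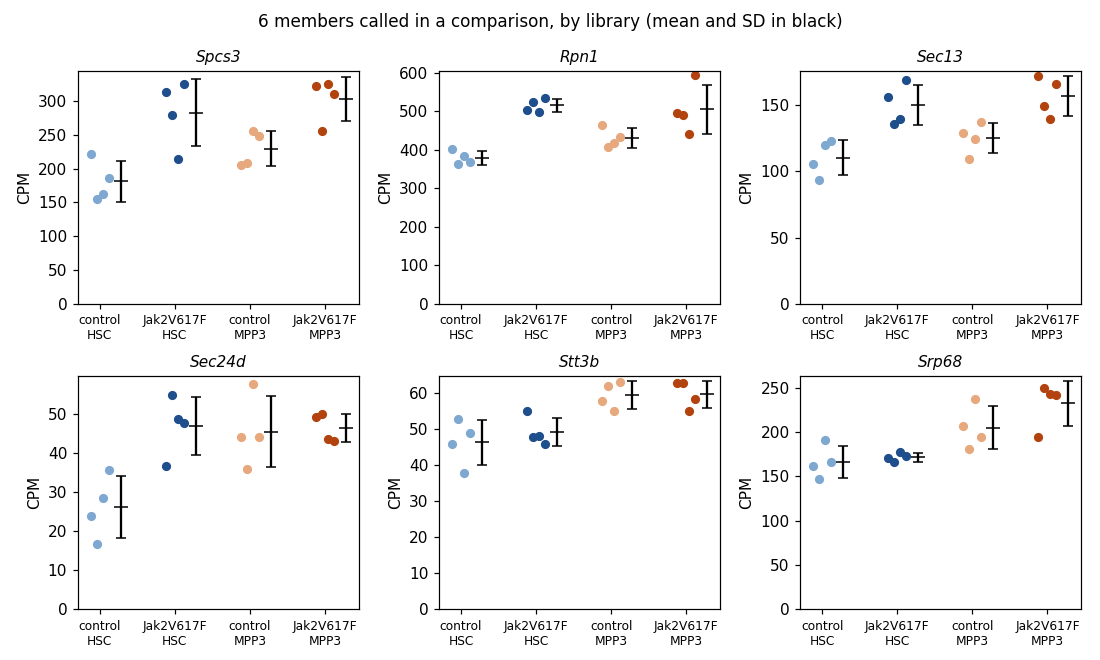
CPM in each of the 16 libraries (points) with mean and SD in black for the 6 members that passed the test in a comparison. Rpn1, Sec13 and Sec24d in Jak2V617F HSC lie above all control HSC libraries, as do 7.26% of all genes. Sec24d in MPP3 of both genotypes lies at 35.9 to 57.7 CPM.

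Other members near the threshold in HSC included genes on the lower side. Sec31a, the partner of Sec13 in the outer coat, was at 201, 142, 175 and 218 CPM in control HSC and 142, 138, 130.3 and 157 CPM in Jak2V617F HSC, a fold change of -0.38 ± 0.14 (edgeR adjusted p = 0.105), and of -0.47 without control HSC 2 (0.0473). The ranges overlap. Sec13 and Sec31a had fold changes of opposite sign, a difference that was not tested. Sec62 was at 84.0, 97.4, 84.6 and 80.4 CPM and 57.8, 73.8, 87.4 and 56.7 CPM, with a fold change of -0.33 ± 0.14 (edgeR adjusted p = 0.178, and 0.0432 with the batch as a block). Mutant 3 was within the Sec62 control range and the other 3 mutant libraries were below it. The Rpn1 partner Rpn2 was at 669.9, 588, 588 and 571 CPM and 659.8, 718, 725 and 691 CPM, with a fold change of 0.21 ± 0.08 (edgeR adjusted p = 0.116, DESeq2 adjusted p = 0.0407). Control 1 was the highest Rpn2 control and overlaps the mutant libraries. Srp19, an RNA-binding protein of the signal recognition particle, was at 55.3, 42.0, 47.2 and 33.1 CPM and 74.3, 52.1, 63.1 and 52.2 CPM, with a fold change of 0.44 ± 0.19 (edgeR adjusted p = 0.167, and 0.0468 with the batch as a block). The Srp19 ranges overlap, with each batch higher in the mutant.

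In MPP3, none of the 38 genes passed the test between Jak2V617F and control, beside 0.0635% of all genes (9 genes; 0.0141% higher and 0.0494% lower). DESeq2 and limma-voom called none of them either, and the lowest edgeR adjusted p was 0.192. At an unadjusted p under 0.05 there were 7 members, all higher in Jak2V617F, beside 13.8% of all genes. The members' fold changes had a median of 0.14 on the log2 scale, beside -0.02 for all genes tested. Positive fold changes were seen for 34 of 38, beside 46.7% of all genes and 51.9% of genes averaging at least 10 CPM. With no scaling factor between libraries 27 were positive, and the medians were 0.098 for the members and -0.068 for all genes.

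Sec13 was at 129, 109.6, 124 and 137 CPM in control MPP3 and 172, 149, 139.7 and 166 CPM in Jak2V617F MPP3, with a fold change of 0.33 ± 0.11 (edgeR adjusted p = 0.192). Spcs3 was at 205, 208, 256 and 248 CPM and 322, 256, 325 and 310.2 CPM, with a fold change of 0.40 ± 0.14 (edgeR adjusted p = 0.206). For both genes every mutant library stood above every control library, for Spcs3 by a narrow margin (replicate 2 of Jak2V617F against replicate 3 of control). The other signal peptidase subunit Spcs2 was at 343, 343, 393 and 347 CPM and 449.7, 366, 438 and 442 CPM, with a fold change of 0.25 ± 0.09 (edgeR adjusted p = 0.202). Ssr1, the TRAP subunit alpha, was at 727, 621, 769 and 816 CPM and 991, 804, 918 and 925 CPM, with a fold change of 0.31 ± 0.11 (edgeR adjusted p = 0.211). The ranges of Spcs2 and of Ssr1 overlap through Jak2V617F MPP3 2, which was the lowest mutant library for both.

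Rpn1 was at 464, 406, 418 and 433 CPM in control MPP3 and 494, 491, 441 and 593 CPM in Jak2V617F MPP3, a fold change of 0.23 ± 0.09 (edgeR adjusted p = 0.235). Sar1b, a GTPase that starts COPII assembly, was at 68.6, 66.8, 61.6 and 70.8 CPM and 92.2, 70.1, 73.1 and 88.7 CPM, a fold change of 0.28 ± 0.10 (edgeR adjusted p = 0.234). Sec61b was at 139.8, 155, 117 and 114 CPM and 180.4, 166, 134 and 167 CPM, a fold change of 0.30 ± 0.13 (edgeR adjusted p = 0.315). Each of these overlaps between the groups. In all, 4 members (Sec13, Spcs3, Sec11a and Stt3a) had CPM ranges that did not overlap, all of them higher in Jak2V617F, beside 3.65% of all genes with higher ranges.

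Whether the Jak2V617F effect differed between MPP3 and HSC was tested for each gene. None of the 38 passed, beside 0.0423% of all genes (6 genes; 0.0141% higher and 0.0282% lower), and the lowest adjusted p was 0.487. DESeq2 and limma-voom called none, and at an unadjusted p under 0.05 there was 1 member, beside 6.93% of all genes. It was Sec24d, with a difference of -0.81 ± 0.28 (MPP3 effect minus HSC effect). The difference of Rpn1 was -0.21 ± 0.12 and that of Spcs3 -0.24 ± 0.20 (edgeR adjusted p = 0.828 and 0.929). So the calls made in HSC and not in MPP3 are not shown to differ between the cell types.

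Between HSC and MPP3 few of these genes passed the test. In control mice, 2 of 38 rose, Sec24d and the oligosaccharyltransferase catalytic subunit Stt3b, beside 13.6% of all genes called, 6.67% higher and 6.91% lower, and 16.01% of genes averaging at least 10 CPM. None was called lower by edgeR, DESeq2 or limma-voom, and at an unadjusted p under 0.05 there were 9 members, 1 of them lower (Sec24c), beside 26.5% of all genes. In Jak2V617F mice 1 of 38 rose, Srp68, beside 8.36% of all genes called, 3.69% higher and 4.68% lower, and 9.40% of genes averaging at least 10 CPM. None was called lower by the 3 tools, and 8 had an unadjusted p under 0.05, beside 20.4% of all genes. The comparison of cell types in control mice and that of Jak2V617F against control HSC share the 4 control HSC libraries.

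Sec24d was at 44.2, 35.9, 57.7 and 44.2 CPM in control MPP3, against the control HSC values given above. Control HSC was the low group of the 4, and each control MPP3 library stood above each control HSC library. The fold change was 0.80 ± 0.20 (edgeR adjusted p = 0.0129). In Jak2V617F MPP3 it was at 49.2, 49.9, 43.7 and 43.0 CPM, within the range of Jak2V617F HSC, with a fold change between those cell types of -0.02 ± 0.20 (edgeR adjusted p = 0.983). Stt3b (chr9:115242581-115310421) was at 45.8, 52.7, 37.7 and 48.8 CPM in control HSC and 57.8, 61.9, 54.9 and 63.1 CPM in control MPP3, with no overlap. Its fold change was 0.36 ± 0.11 (edgeR adjusted p = 0.0416), a call that was lost in 9 of the 16 fits that left out a library (0.0546 to 0.123; each control MPP3 library, control HSC 1, 3 and 4, and Jak2V617F HSC 2 and 4), without Jak2V617F HSC 1 and 4 together (0.0521), and also with no scaling factor (0.0822), with only the groups compared (0.0978) and with effective-length offsets (0.0553). In Jak2V617F mice Stt3b was at 54.9, 47.7, 48.1 and 45.9 CPM in HSC and 62.7, 62.8, 55.1 and 58.3 CPM in MPP3 (0.28 ± 0.11, edgeR adjusted p = 0.156), again with no overlap. Without Jak2V617F HSC 3 the control comparison called 5 members, Srp68 (0.0463), Ssr1 (0.0287) and Spcs3 (0.0477) being added. The share of all genes called in that fit is not given here.

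Srp68 (chr11:116245166-116274217), a protein subunit of the signal recognition particle, was at 171, 166, 178 and 173 CPM in Jak2V617F HSC and 195, 249.6, 243 and 242 CPM in Jak2V617F MPP3. Every MPP3 library stood above every HSC library, and MPP3 1 was apart from the other 3 on the low side. The fold change was 0.44 ± 0.10 (edgeR adjusted p = 0.0123), with an adjusted p of 0.0544 without Jak2V617F MPP3 2 and of 0.085 without Jak2V617F HSC 1 and 4 together. In control mice it was at 161, 147, 191 and 166 CPM in HSC and 207, 181, 237 and 195 CPM in MPP3, with overlap (0.30 ± 0.10, edgeR adjusted p = 0.0633, and 0.0351 with the batch as a block). With the batch as a block 3 members rose in Jak2V617F MPP3 against HSC, the partner Srp72 (0.0487) and Ssr1 (0.0345) being added, and 2 did by DESeq2. Shares of all genes called in these fits are not given here.

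Ssr1 was at 657, 570.0, 559 and 631 CPM in control HSC and 778, 738, 575 and 782 CPM in Jak2V617F HSC, against the MPP3 values given above. Its fold changes from HSC to MPP3 were 0.28 ± 0.11 in control and 0.34 ± 0.11 in Jak2V617F mice (edgeR adjusted p = 0.106 and 0.0683). Its partner Ssr2 was at 224, 185, 202 and 185 CPM in control HSC and 243, 254, 211 and 222 CPM in control MPP3, and its fold changes were 0.22 ± 0.09 and 0.24 ± 0.09 (edgeR adjusted p = 0.12 and 0.126). In Jak2V617F mice both had MPP3 ranges above the HSC ranges, as did Srp72, Srp68 and Stt3b, 5 members in all beside 6.14% of all genes. In controls 3 members had higher ranges, Rpn1, Stt3b and Sec24d, beside 9.25% of all genes.

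**Figure D3:**
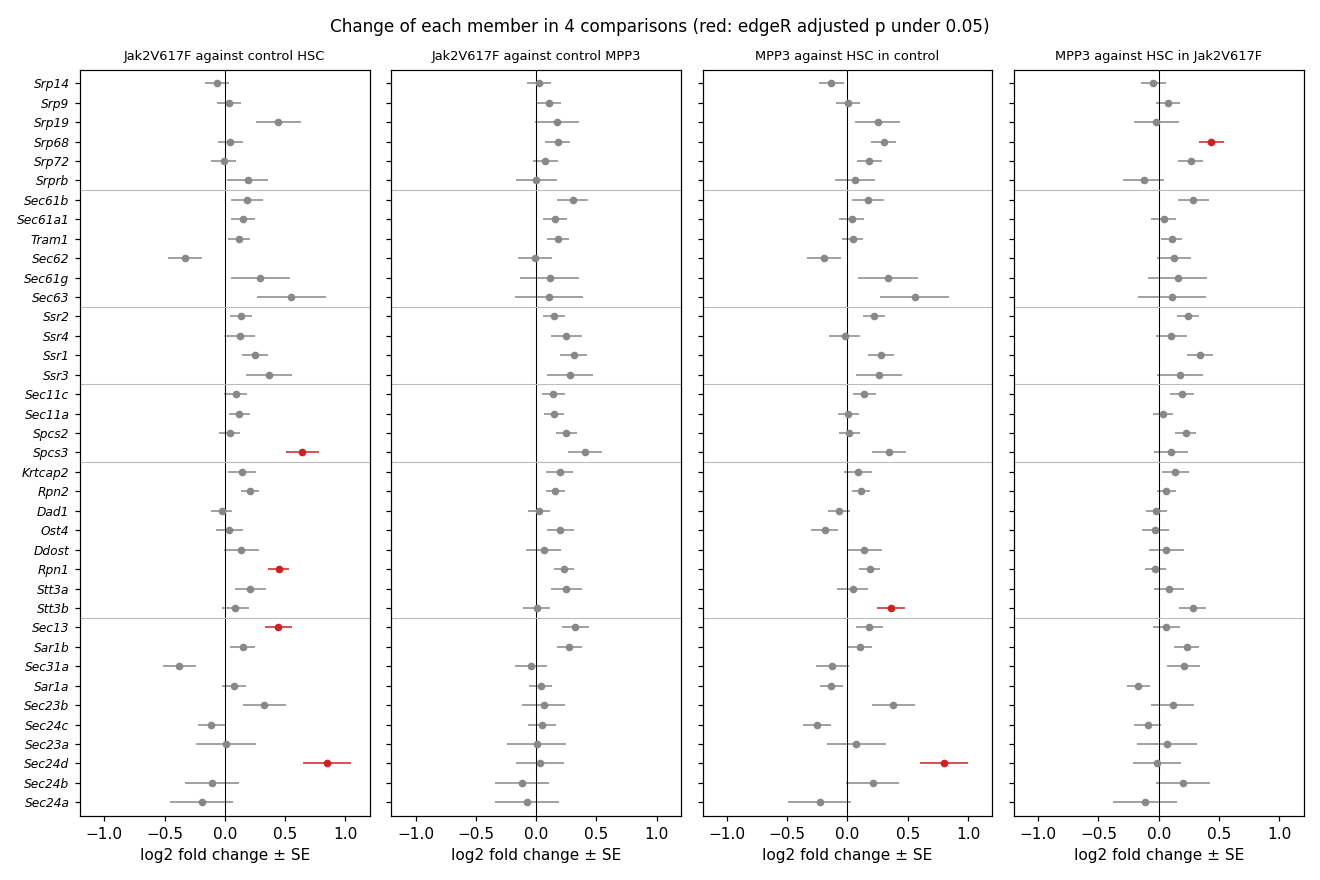
Log2 fold change with SE of the 38 genes, by role, in the 4 comparisons, with members past an edgeR adjusted p of 0.05 in red. The SE of a member had a median of 0.11, and 35 to 38 of the 38 members lay within 0.5 of 0 in each comparison.

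Most members differed little between the groups. Fold changes under 0.5 in size were seen for 35 of 38 in HSC, 38 in MPP3, 36 between cell types in control and 38 in Jak2V617F mice, beside 70%, 76.2%, 65.9% and 70.5% of all genes. Among genes averaging at least 10 CPM the shares were 82.7%, 92.5%, 80.9% and 86.6%. For the difference of the Jak2V617F effects it was 37 of 38, beside 71.1% of all genes. No member had a CPM range lying wholly below that of the reference group, beside 7.6%, 3.48%, 10.2% and 7.63% of all genes in the 4 comparisons. The medians lay slightly above those of all genes in each comparison: 0.13 beside -0.06 in HSC, 0.14 beside -0.02 in MPP3, 0.11 beside -0.005 between cell types in control and 0.10 beside 0.002 in Jak2V617F mice. For genes of at least 10 CPM the medians were -0.01, 0.01, 0.04 and 0.04. Positive fold changes were seen for 30 members in HSC, 29 between cell types in control and 28 in Jak2V617F mice, beside 44%, 49.5% and 50.2% of all genes. Among genes of at least 10 CPM the positive shares were 48.4%, 54.5% and 56.7%. With no scaling factor the counts of members were 29, 26 and 26.

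**Figure D4:**
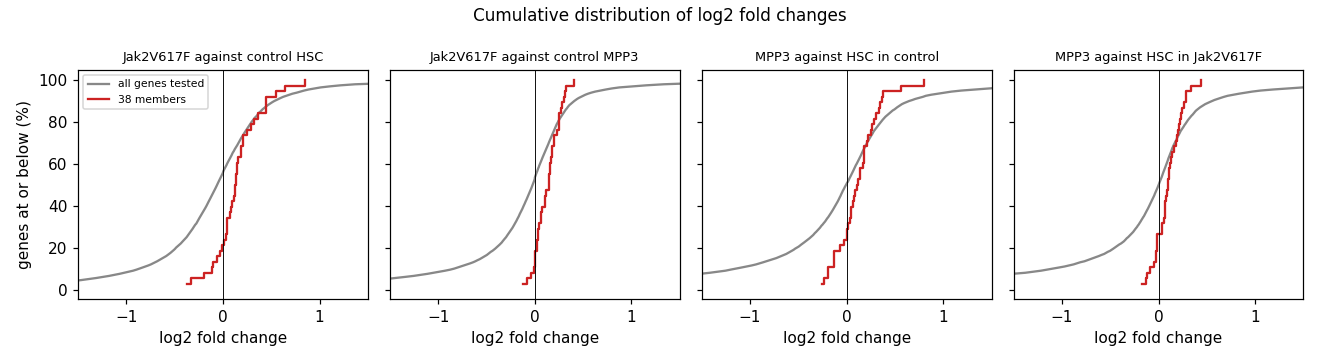
Cumulative percentage of genes by log2 fold change for the 38 members (red) and the 14179 genes tested (grey) in 4 comparisons. The members' curve is steeper than the grey curve and lies to its right at the median, at 0.13, 0.14, 0.11 and 0.10, and to its left near the top.

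The summed CPM of all 38 genes was 6338 ± 468 in control HSC, 7108 ± 232 in Jak2V617F HSC, 6822 ± 164 in control MPP3 and 7728 ± 368 in Jak2V617F MPP3 (SD, n = 4). In HSC the ranges overlap, since control 1 (6975) exceeded mutant 3 (6791), while in MPP3 they do not (6610 to 6964 and 7306 to 8062). The TRAP genes summed to 1067 ± 85.3 CPM in control HSC and 1248 ± 124 in Jak2V617F HSC, and to 1252 ± 52.7 and 1512 ± 110 in MPP3. The oligosaccharyltransferase summed to 2077 ± 181 and 2405 ± 65.5 CPM in HSC and to 2214 ± 62.5 and 2484 ± 184 in MPP3. The COPII coat summed to 911 ± 91.1, 946 ± 65.7, 919 ± 62.5 and 972 ± 24.3 CPM in control HSC, Jak2V617F HSC, control MPP3 and Jak2V617F MPP3. These sums are descriptions and carry no p.

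Several members are paralogs that fill the same position, and their relative use was compared as a share of summed TPM within each library. None of the 20 differences passed (exact two-sided permutation test, 4 against 4 libraries, for which the smallest p is 0.0286; lowest adjusted p = 0.286). After adjustment a share could pass only if most of the 20 reached that smallest p together, so the absence of a call says little about these shares. Sec11c, a catalytic signal peptidase subunit, held 48.6, 52.8, 52.1 and 53.8% of the Sec11a and Sec11c total in control HSC and 56.4, 58.0, 54.2 and 55.5% in control MPP3. No library of the groups overlaps, a difference of 4.17 ± 1.38 points (exact p = 0.0286), which was 2.16 points with CPM in place of TPM. Sar1b held 54.8, 57.7, 56.1 and 56.9% of the Sar1 total in Jak2V617F HSC and 63.7, 60.4, 58.2 and 67.3% in Jak2V617F MPP3, a difference of 6.02 ± 2.08 points (exact p = 0.0286). Stt3b held 12.7 ± 3.10% of the Stt3 total in control HSC, 11.7 ± 2.20% in Jak2V617F HSC, 15.5 ± 2.23% in control MPP3 and 13.7 ± 1.16% in Jak2V617F MPP3. Sec23b held most of the Sec23 transcript total, with 74.3 ± 5.98%, 78.8 ± 3.04%, 78.7 ± 2.36% and 79.6 ± 6.80% in the same order.

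Within the Sec24 genes, Sec24c and Sec24d form 1 branch and Sec24a and Sec24b the other, and the first branch held 80.1 ± 1.65%, 81.6 ± 4.07%, 76.8 ± 4.36% and 77.6 ± 3.21% of the total in control HSC, Jak2V617F HSC, control MPP3 and Jak2V617F MPP3. The split inside the branch was looked at after its values were seen and has no test. Sec24d held 10.3, 8.49, 9.78 and 14.4% of all Sec24 in control HSC and 16.1, 19.8, 19.9 and 19.9% in Jak2V617F HSC. In control MPP3 it held 18.2, 16.2, 22.2 and 17.8%, and in Jak2V617F MPP3 22.6, 20.0, 16.9 and 16.1%. Control HSC is below every other library. Sec24c held means of 69.4, 62.7, 58.2 and 58.8% in the 4 groups.

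**Figure D5:**
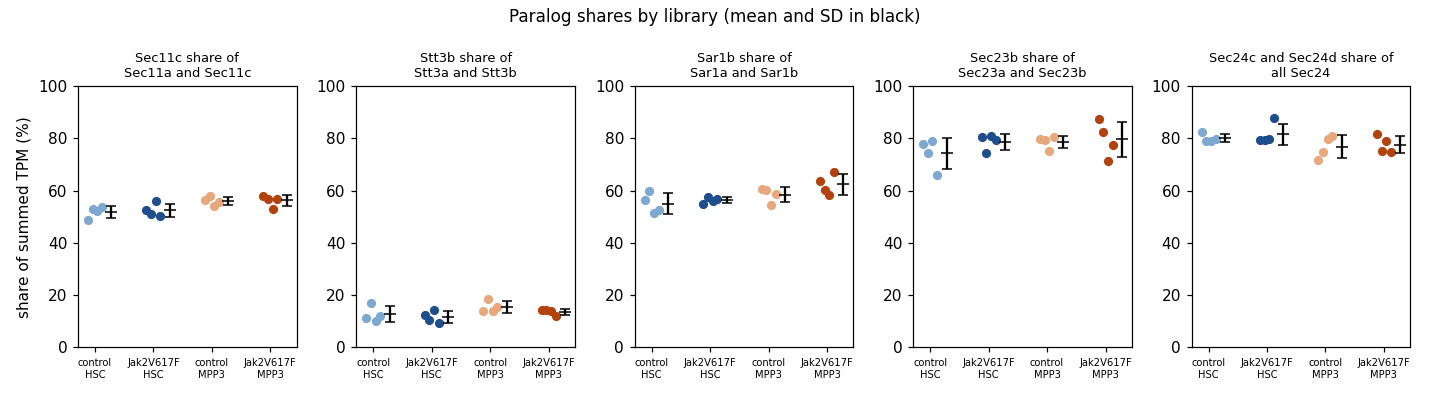
Share of summed TPM held by a paralog in each of the 16 libraries (points), with mean and SD in black, for 5 sets. No difference between groups passed the exact permutation test after adjustment over 20 tests, a threshold that could be reached only if most of the 20 had the smallest p possible. The Sec11c share in control MPP3 (54.2 to 58.0%) lies above that in control HSC (48.6 to 53.8%).

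The genes around this route were counted from 6 further lists, to be read beside the 7.3% of all genes called in HSC (4.56% higher and 2.74% lower). In HSC, 2 of 29 genes of other oligosaccharyltransferase and glycan enzymes rose with Jak2V617F, Alg8 (43.1 to 73.3 CPM, 0.77 ± 0.13, edgeR adjusted p = 0.00255) and Alg3 (0.60 ± 0.13, 0.0122), which build the glycan that the transferase attaches. Of 30 COPII partners and cargo receptors, Sec16a, which organises the ER exit site, fell (-0.60 ± 0.16, 0.0313), and Arf1, the GTPase of the COPI coat, rose (0.29 ± 0.08, 0.0405) among 14 tested COPI genes. Of 29 ER chaperones and regulators of the unfolded protein response, 2 rose, Sdf2l1 (0.69 ± 0.16, 0.0155) and Calr (0.50 ± 0.15, 0.0476), and 3 fell, Edem2 (-0.38 ± 0.10, 0.0272), Ern1 (-1.22 ± 0.33, 0.0343), which encodes IRE1, and Xbp1. None of 9 remaining ER entry genes or of 17 genes of tail-anchor insertion and the EMC passed the edgeR test, with 3 and 3 at an unadjusted p under 0.05, beside 21.7% of all genes.

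Xbp1, a known activator of many genes of this route, was at a mean of 41.4 CPM in control HSC and 19.1 CPM in Jak2V617F HSC, a fold change of -1.11 ± 0.21 (edgeR adjusted p = 0.00461). In MPP3 its mean was 25.6 CPM for control and 18.0 CPM for Jak2V617F (-0.51 ± 0.21, edgeR adjusted p = 0.289). These are levels of all Xbp1 transcripts, and the spliced form is not resolved in gene rows. The chaperone Hspa5 was at 648 and 681 CPM in control and Jak2V617F HSC (0.07 ± 0.25, edgeR adjusted p = 0.922).

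Between the cell types in control mice, where 13.6% of all genes were called, Uggt1 (0.53 ± 0.11, edgeR adjusted p = 0.00497) and Mogs (0.60 ± 0.16, 0.0219) of the glycan enzymes, Ckap4 (0.86 ± 0.24, 0.0271) of the ER entry genes, and Sdf2l1 (0.83 ± 0.16, 0.00229) and Calr (0.70 ± 0.15, 0.00401) of the chaperones were higher in MPP3. Alg2, Mcfd2, Copz2 and Xbp1 were lower in MPP3, with fold changes of -0.61, -0.45, -1.70 and -0.69 (edgeR adjusted p = 0.0178, 0.022, 0.0253 and 0.0373). In Jak2V617F mice, where 8.36% of all genes were called, the 4 calls were chaperone list genes higher in MPP3, Edem2 (0.51 ± 0.10, edgeR adjusted p = 0.00303), Edem1 (0.93 ± 0.21, 0.00925), Pdia4 and Calr. No gene of the 6 lists was called by edgeR for Jak2V617F in MPP3 or for the difference of the effects. At an unadjusted p under 0.05 the highest counts were 7 of the 29 chaperone list genes in MPP3, beside 13.8% of all genes, and 2 of the 30 COPII partners for the difference, beside 6.93% of all genes.

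Plasma and B cells are rich in these transcripts, so their markers are given beside the comparisons that involve MPP3. All 6 markers (Jchain, Ighm, Igkc, Sdc1, Mzb1 and Cd79a) had a row, and their summed level lay between 9.16 and 21.0 CPM in control HSC, 8.46 and 18.4 in Jak2V617F HSC, 73.4 and 664 in control MPP3 and 30.4 and 80.9 in Jak2V617F MPP3. In control HSC Mzb1 was at 0, and in Jak2V617F HSC Igkc was. From HSC to MPP3, 5 of the 6 rose in control and 3 in Jak2V617F mice. Between Jak2V617F and control MPP3 none of the 6 was called. All 6 had a negative fold change there (median -2.25) and an unadjusted p under 0.05 by edgeR, beside 13.8% of all genes at that p. The part of the plasma and B cell markers in the results on MPP3 was not tested. From HSC to MPP3 the sum of 5 mast cell and basophil markers (Cpa3, Mcpt8, Gzmb, Ms4a2 and Prss34) went from between 2.94 and 8.93 CPM to between 55.3 and 114 CPM in control mice and from between 3.14 and 6.82 to between 67.4 and 134 CPM in Jak2V617F mice. That of 4 Fcgr genes went from between 2.97 and 8.33 CPM to between 14.4 and 42.7 CPM in control and from between 2.63 and 6.45 to between 18.2 and 38.4 CPM in Jak2V617F mice. All 5 megakaryocyte markers (Pf4, Itga2b, Gp9, Vwf and Gp1bb) fell from HSC to MPP3 in both genotypes, their sum from between 734 and 1015 CPM to between 157 and 224 CPM in control and from between 942 and 1426 to between 192 and 294 CPM in Jak2V617F mice. Of 4 dendritic cell and macrophage markers tested, Csf1r rose and H2-Aa fell in both genotypes, and Cd74 fell in control mice. The sum of 5 stroma and endothelium markers (Cdh5, Pecam1, Col1a1, Lepr and Cxcl12) went from between 61.5 and 85.7 CPM to between 86.9 and 183 CPM in control mice. In Jak2V617F mice that sum went from between 53.0 and 83.2 to between 132 and 152 CPM. Of 4 of them tested, 1 was called higher and 2 had negative fold changes in each genotype. The part of these markers was not tested.

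The 4 members that rose in Jak2V617F HSC were called between groups in which the plasma and B cell sums overlap. None of the 6 plasma and B cell markers was called between these groups. An unadjusted p under 0.05 by edgeR was seen for 2 of them, beside 21.7% of all genes, and their part was not tested. Other markers moved between these groups: 3 of the 5 HSC markers fell, with the sums given above not overlapping, and 2 of the 5 megakaryocyte markers (Pf4 and Itga2b) rose, with sums that overlap. Of the 5 myeloid markers that check MPP3, Prtn3 fell and Cd48 rose, and their sum lay between 341 and 411 CPM in control HSC and between 176 and 334 CPM in Jak2V617F HSC, with no overlap. The part of the stem cell, megakaryocyte and myeloid markers in the results on HSC was not tested. The sum of 5 neutrophil markers (S100a8, S100a9, Ltf, Camp and Ngp) lay between 19.2 and 64.5 CPM in control HSC and between 2.01 and 44.8 CPM in Jak2V617F HSC. In MPP3 that sum lay between 4.80 and 277 CPM in control and between 1.38 and 203 CPM in Jak2V617F mice. None of the 5 was called in any comparison, and the part of these markers was not tested. Erythroid markers are not described here.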

How the data were processed

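RNA was measured in 16 libraries, 4 per group, made per the labels from 7000 to 10000 sorted cells (10 ng of RNA, SMARTer Ultra Low kit, 12 to 15 PCR cycles, 150-base paired reads). The submitters' processing notes name cutadapt 4.0, FastQC, HISAT2 and Salmon with GRCm38 (mm10); no source used here gives their roles or settings. The deposited tables hold the authors' Salmon estimated counts (expected counts per gene, not normalized), which were rounded and tested. The authors' deposited TPM served for levels between genes and paralog shares, and effective lengths for 1 alternative.

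Of 31716 rows, 29806 were genes; the 1910 rows named as single transcripts (0.697 to 0.796% of counts) entered 1 alternative alone. GENCODE M21 supplied symbols and coordinates. edgeR 4.0.16 in R 4.3.3 (glmQLFit, robust, and glmQLFTest; TMM; filterByExpr) fitted 1 coefficient per group over all 16 libraries, with Benjamini-Hochberg adjustment over 14179 genes; SE is the size of the log2 fold change over the root of the F statistic. The fit was tested on simulated data. Alternatives were the batch as a block, other scalings, DESeq2 1.42.0, limma-voom (limma 3.58.1), no filter, only the groups compared, length offsets, transcript rows added and each library left out. Per the labels the replicate number is the batch, so the numbers pair the libraries. Deviations of same-numbered libraries correlated from -0.032 to 0.164 over 24 pairs. The range was 0.082 to 0.164 between HSC and MPP3 of 1 genotype and -0.032 to 0.098 between genotypes.

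Members, lists and tests were chosen with earlier results of these data known. Per-library values are given for all called members and for those with the smallest adjusted p (up to 8 per comparison, mean of at least 5 CPM), and from each other list up to 2 called genes per direction, with Xbp1, Ern1 and Hspa5. Further called genes of short lists were named after their values were seen. A result on 1 marker gene is not reported here.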

Additional observations from a re-analysis of the deposited data

Results flagged for a closer look

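In 12 of 172 groups of 4 libraries examined, 1 library lay far from the other 3 by Dixon's criterion, which chance alone gives in about 1 of 20 groups. Of the called members this touched Srp68, at 194.6 CPM in Jak2V617F MPP3 1, the low side of its group. Control HSC 1 stood high for Ssr3 (162 CPM), Rpn2 (669.9 CPM) and Krtcap2 (159.9 CPM), and control HSC 4 stood apart for Ost4 (94.1 CPM). Jak2V617F HSC 3 stood apart for Srp14 (164 CPM) and Jak2V617F HSC 2 for Sec24a (17.5 CPM). Control MPP3 3 stood high for Spcs2 (393 CPM) and Jak2V617F MPP3 2 low (366 CPM), and Jak2V617F MPP3 4 stood high for Stt3a (477 CPM). In that last library the Stt3b share was 11.96%, the lowest of its group. The share of Sec24c and Sec24d together was 87.7% in Jak2V617F HSC 4, against 79.4 to 79.8% in the other 3.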

How the results depend on the processing

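The fold changes of the called members kept their sign in the 26 alternative fits, while with no scaling factor the members with a positive fold change in MPP3 went from 34 to 27. In that fit the median fold change in MPP3 went from 0.144 to 0.098 for the members and from -0.021 to -0.068 for all genes. With the batch as a replicate block, the members called between cell types in Jak2V617F mice numbered 3, and 2 by DESeq2, against 1; the block ended no call, and it gave 6 members in HSC (5 higher and 1, Sec62, lower), 3 between cell types in control and 0 in MPP3. Between cell types in control the count was 1 with no scaling factor and 1 with only the groups compared, against 2. Without Jak2V617F HSC 1 and 4 together the counts were 1 in HSC, 1 between cell types in control and 0 in Jak2V617F mice, where fewer libraries were left. Leaving out each library in turn gave 3 to 7 members in HSC, 0 to 0 in MPP3, 1 to 5 between cell types in control (5 without Jak2V617F HSC 3), 0 to 1 in Jak2V617F mice and 0 to 0 for the difference. The cause was not tested. Shares of all genes called in the alternative fits are not given here, so these counts describe the members alone. In the 26 alternative fits, adjusted p spanned 2.07e-05 to 0.0527 for Rpn1, 0.00103 to 0.0495 for Sec24d and 0.000198 to 0.197 for Spcs3 in HSC, 0.00244 to 0.263 for Sec13, 0.0185 to 0.123 for Stt3b and 0.0019 to 0.085 for Srp68. Paralog shares could not pass an exact test within batches, where 4 pairs allow a p of 0.125 at best. The members' log2 SEs, 0.077 to 0.284 in the 4 comparisons of groups and 0.11 to 0.4 for the difference of the effects, bound the size of change that could be called.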
